A study of Mus musculus with 6 samples.

Results

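The genes described here encode voltage-gated and potassium ion channels: the pore-forming and auxiliary subunits of potassium channels (symbols starting Kcn), voltage-gated sodium channels (Scn), voltage-gated calcium channels (Cacna, Cacnb, Cacng) and the HCN cation channels. They were chosen by symbol among the protein-coding genes of the deposited table. Of 17842 protein-coding genes, 133 matched, 116 of these had counts in all 6 libraries, and 102 of the 116 passed the low-count filter and were tested. The other 14 had counts everywhere but too few for the test, and 17 matched genes lacked counts in at least 1 library.

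Ion channels set the electrical behaviour of a neuron. Potassium channels hold the resting potential and end the action potential, sodium channels start it, and calcium channels turn depolarisation into calcium entry. HCN channels open on hyperpolarisation and carry a pacemaker current. Pore subunits form the ion path, while auxiliary subunits alter gating and delivery to the membrane. In the embryonic striatum these genes come on as newborn projection neurons leave the germinal zone and mature.

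The samples were bulk RNA-seq libraries from the lateral ganglionic eminence (LGE), the embryonic ventral forebrain structure that gives rise to striatal projection neurons and olfactory bulb interneurons. Tissue was taken at embryonic day 16.5 from C57BL/6 mice. The 3 control libraries carried the Cre driver alone (Dlx5/6-Cre), and the 3 Zfhx3-CKO libraries carried it with both Zfhx3 alleles floxed (Dlx5/6-Cre; Zfhx3F/F). All 6 therefore carry Cre, which Dlx5/6 regulatory sequence drives in GABAergic cells of the ventral forebrain, so other cell types in the dissected tissue keep the gene. Zfhx3 encodes a large homeobox and zinc-finger transcription factor. The comparison asks which channel genes differ in the LGE when it is deleted there.

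Library totals ran from 15938590 to 16753355 counts in control and from 18960574 to 20311799 in Zfhx3-CKO. Zfhx3 itself was at 133.7, 134.6 and 100.8 CPM (counts scaled to a common library size) in control libraries 1, 2 and 3, against 98.7, 87.3 and 99.3 CPM with the deletion (edgeR log2 fold change -0.37, SE 0.12, adjusted p = 0.0911). Every Zfhx3-CKO library lay below every control, by a narrow margin for control library 3. The alternative test DESeq2 called Zfhx3 at an adjusted p under 0.05. The Zfhx3 count covers the whole gene, and the floxed exons were not measured on their own. Xist stood at or below 0.567 CPM in control and at or above 2870 CPM in Zfhx3-CKO, and the 4 Y-linked genes measured were all lower in Zfhx3-CKO, so sex and genotype cannot be told apart. The tissue label was checked against 15 striatal projection neuron markers: none was at 0, 3 rose and 6 fell, and their summed level was 3596 to 4191 CPM in control and 2766 to 3223 CPM in Zfhx3-CKO. The labels do not say that libraries came from separate animals or litters, so every p-value rests on the spread between the libraries at hand, which may be technical. In bulk tissue, fewer cells of a type and less RNA per cell cannot be told apart.

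The sequences just upstream of 3 of the genes that passed the test are shown because they are the proximal promoters of genes that moved in opposite directions. They are the 250 bases before the annotated start from RefSeq on GRCm38.p6, 5′ to 3′ on the gene's strand, with each GGGCGG (the core of a GC box) in capitals.
Kcna3, chr3:107035912-107036161, plus strand: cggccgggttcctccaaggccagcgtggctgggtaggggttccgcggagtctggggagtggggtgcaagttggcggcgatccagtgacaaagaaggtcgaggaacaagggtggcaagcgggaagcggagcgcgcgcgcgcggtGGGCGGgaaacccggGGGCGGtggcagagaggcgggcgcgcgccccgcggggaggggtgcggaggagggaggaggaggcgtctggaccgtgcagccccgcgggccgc
Kcnn3, chr3:89519914-89520163, plus strand: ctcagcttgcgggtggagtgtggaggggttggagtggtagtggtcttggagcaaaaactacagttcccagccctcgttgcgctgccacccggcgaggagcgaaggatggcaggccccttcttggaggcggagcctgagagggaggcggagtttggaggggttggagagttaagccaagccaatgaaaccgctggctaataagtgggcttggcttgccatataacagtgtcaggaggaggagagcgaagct
Kcna6, chr6:126740675-126740924, minus strand: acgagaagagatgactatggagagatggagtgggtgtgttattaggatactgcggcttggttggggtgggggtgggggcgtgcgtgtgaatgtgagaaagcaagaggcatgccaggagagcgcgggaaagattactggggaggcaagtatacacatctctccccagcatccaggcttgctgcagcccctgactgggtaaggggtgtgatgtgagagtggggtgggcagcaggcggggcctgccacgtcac
The Kcna3 window held 2 GGGCGG matches, 31 CpG and 74.4% G+C. The Kcnn3 and Kcna6 windows held none of that motif, 10 and 8 CpG, and 58.8% G+C each. Searched on both strands, the homeobox core TAATTA and the E-box CANNTG were found 0 times in each of the 3 windows. RefSeq promoter rows covered 71 of the 102 tested genes with 100 start sites. Among these 100 windows 42 held GGGCGG, 65 held CANNTG and 0 held TAATTA, while among all 32851 windows of that length the shares were 32.7%, 66.2% and 4.84%. Median G+C was 59.0% in the channel windows and 52.4% in all.

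Few channel genes passed the test between genotypes. Of the 102 tested genes, 2 rose in Zfhx3-CKO (Kcna3 and Kcnn3) and 2 fell (Kcna6 and Cacng4), while 98 did not pass an adjusted p of 0.05. Each direction held 1.96% of the members. Over all 16551 tested genes the share called was 3.87% higher and 3.48% lower, so in this fit the channel genes were not called more often than genes in general. That reading depends on the Zfhx3-CKO libraries, and the shares also changed with the method. With all 6 libraries, DESeq2 called 7 of 116 (6.03%) higher against 3.44% of all genes, and 2 (1.72%) lower against 2.55%. Without the low-count filter, edgeR called 9 of 116 (7.76%) higher against 3.62%, and 3 (2.59%) lower against 2.65%. In these 2 runs all genes were 29651 and 29659 and included those with few counts, which can hardly be called. The 116 had counts in every library, so member and background shares there are not like for like. Without Zfhx3-CKO library 2, 13 of 107 channel genes (12.1%) were called higher against 5.11% of all genes. Without Zfhx3-CKO library 3, 11 of 103 (10.7%) were called lower against 6.06%. The authors' deposited table marked 0 of the 133 matching genes as significant, although its adjusted p was under 0.05 for 9 of them. The median log2 fold change of the channel genes was 0.08, with quartiles of -0.23 and 0.39, against 0.00 with quartiles of -0.18 and 0.19 over all tested genes. Their median absolute log2 fold change was 0.31, against 0.19, in sets not matched for count level or for spread between libraries. At an unadjusted edgeR p under 0.05, 16 channel genes (15.7%) were higher and 13 (12.7%) lower. The share of all tested genes at that threshold is not given, so class counts at it only describe the members. Groups did not overlap for 28 channel genes: 15 (14.7%) had all 3 Zfhx3-CKO libraries above all 3 controls, where 15.5% of all tested genes did, and 13 (12.7%) had them below, where 15.9% did.

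**Figure D1:**
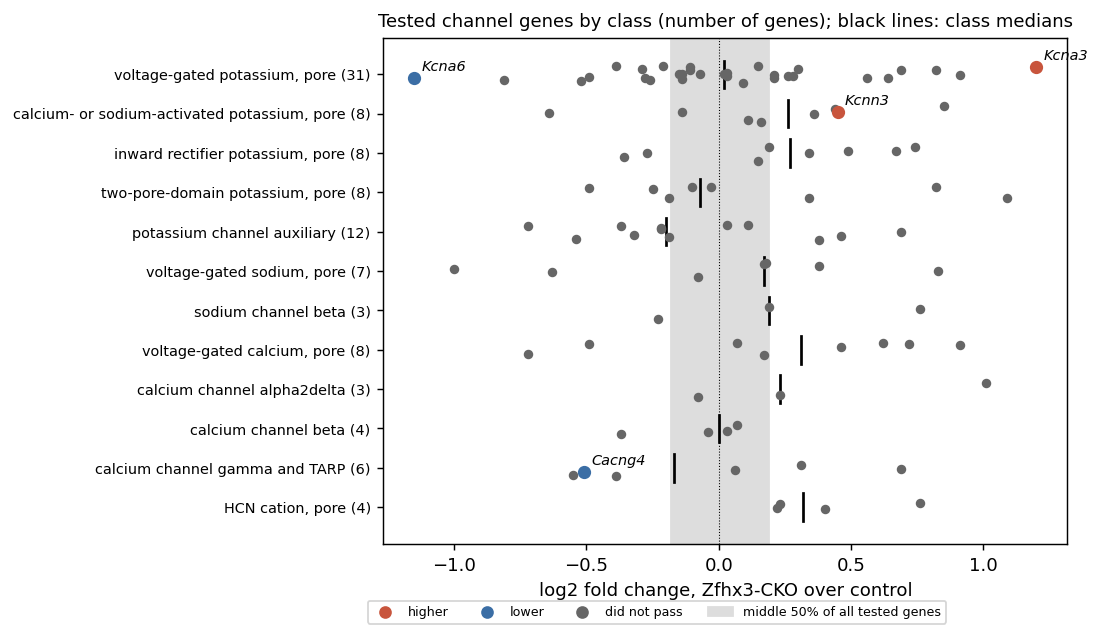
Log2 fold change (Zfhx3-CKO over control) of the 102 tested channel genes, 1 point per gene in rows by channel class, with genes that passed the test coloured and the class median marked. The grey band is the middle 50% of all tested genes (-0.18 to 0.19), and the class medians run from -0.20 for potassium channel auxiliary subunits to 0.32 for HCN channels.

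The 2 changed voltage-gated potassium channel genes belong to the Shaker (Kv1) subfamily, whose channels open near threshold and limit repetitive firing. Kcna3 (ENSMUSG00000047959, chr3:107036169-107038070, plus strand) encodes Kv1.3, a channel best known from lymphocytes and also found in microglia and olfactory bulb neurons. It was at 6.68, 6.24 and 4.42 CPM in control libraries 1, 2 and 3 and at 12.2, 11.1 and 16.5 CPM in Zfhx3-CKO libraries 1, 2 and 3. All 3 Zfhx3-CKO libraries lay above all 3 controls, with library 3 the highest. The means were 5.78 ± 1.20 and 13.3 ± 2.86 CPM (SD, n = 3 each), a 2.30-fold rise (log2 fold change 1.20, SE 0.21, edgeR adjusted p = 0.0143). The call was lost without control library 1 (adjusted p = 0.0593) or control library 2 (0.0677). Of 5 microglia markers 1 fell (P2ry12) and 4 did not pass, none was at 0, and their summed level was 227.9 to 330.8 CPM in control and 152.8 to 252.1 CPM in Zfhx3-CKO; their part in the Kcna3 result was not tested. An antisense gene, Gm27008, overlaps Kcna3 and had 13 to 27 counts, and without strand its reads cannot be told apart from those of Kcna3.

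Kcna6 (ENSMUSG00000038077, chr6:126708329-126740674, minus strand), which encodes Kv1.6, moved the other way. Control libraries 1, 2 and 3 had 25.4, 23.0 and 23.3 CPM, and Zfhx3-CKO libraries 1, 2 and 3 had 9.40, 7.93 and 15.0 CPM. The groups did not overlap, and Zfhx3-CKO library 3 lay closest to control. Kcna6 fell to 45.1% of control, from 23.9 ± 1.29 to 10.8 ± 3.73 CPM (SD, n = 3 each; log2 fold change -1.15, SE 0.22, edgeR adjusted p = 0.0183). Leaving out control library 1, 2 or 3 raised the adjusted p to 0.102, 0.0833 or 0.0577, and leaving out Zfhx3-CKO library 1 raised it to 0.0842. With Zfhx3-CKO library 2 as the only library of its group, the log2 fold change was -1.59. A test there takes all its spread from the 3 controls and is no replicate check, so only the effect size is given. The overlapping antisense gene Gm26673 had 0 to 8 counts.

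The remaining 29 tested voltage-gated potassium pore genes did not pass, and the class median was 0.02. Kcng1, a silent subunit that modifies Kv2 channels, came closest: 9.37, 11.8 and 7.35 CPM in control against 18.4, 12.8 and 22.3 CPM in Zfhx3-CKO (log2 fold change 0.91, adjusted p = 0.0532). Kcna4, an inactivating Kv1 channel, was at 4.48 CPM in control and 2.55 CPM in Zfhx3-CKO on average, without overlap (log2 fold change -0.81, adjusted p = 0.116). The A-type genes Kcnd2 and Kcnd3, which encode rapidly inactivating Kv4 channels of dendrites, had opposite signs, with log2 fold changes of -0.49 (adjusted p = 0.218) and 0.30 (adjusted p = 0.126). The Kcnq genes carry the M-current, which damps excitability. Kcnq3 ran from 47.8 to 68.7 CPM in control and from 42.4 to 78.0 CPM in Zfhx3-CKO (log2 fold change -0.07), and Kcnq5 had a log2 fold change of -0.26, both with overlapping groups. The ether-a-go-go family members Kcnh3 and Kcnh4 had -0.14 and 0.21. Kcnd1, on the X chromosome, gave 0.02 (adjusted p = 0.958).

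**Figure D2:**
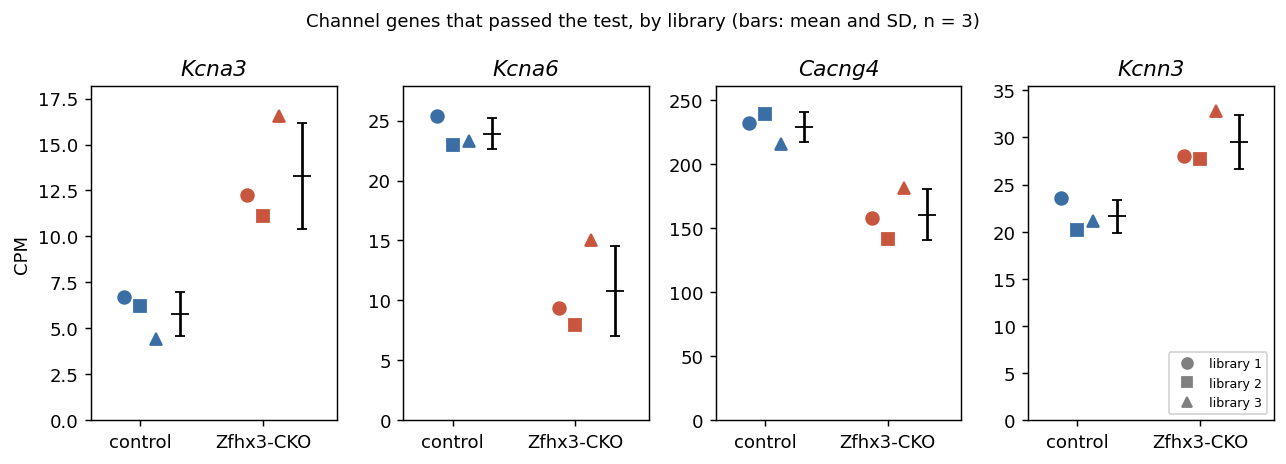
CPM of Kcna3, Kcna6, Cacng4 and Kcnn3 in each of the 6 libraries, with marker shape for the library number and black bars for mean and SD (n = 3 per group); each panel has its own axis from 0. The control and Zfhx3-CKO points do not overlap in any of the 4 panels, with Zfhx3-CKO higher for Kcna3 and Kcnn3 and lower for Kcna6 and Cacng4.

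Among the calcium- and sodium-activated potassium channels, 1 of 8 tested genes rose. Kcnn3 (ENSMUSG00000000794, chr3:89520164-89675132, plus strand) encodes SK3, a small-conductance channel opened by calcium that shapes the afterhyperpolarisation. Control libraries 1, 2 and 3 had 23.6, 20.2 and 21.1 CPM, and Zfhx3-CKO libraries 1, 2 and 3 had 28.0, 27.7 and 32.8 CPM. The groups did not overlap, though the gap between them was narrow. Kcnn3 rose from 21.6 ± 1.74 to 29.5 ± 2.84 CPM (SD, n = 3 each; log2 fold change 0.45, SE 0.11, edgeR adjusted p = 0.0471). The call stood without Zfhx3-CKO library 2 (0.0417) and was lost on leaving out any other library, with adjusted p up to 0.176, and with limma-trend on FPKM (0.101). The related SK2 gene Kcnn2 was at 23.9, 22.9 and 26.2 CPM in control and 37.4, 32.8 and 29.2 CPM in Zfhx3-CKO, without overlap and just outside the threshold (log2 fold change 0.44, adjusted p = 0.0537). Kcnn1 (SK1) had -0.14. The sodium-activated channel gene Kcnt2 was at 5.42 and 3.48 CPM on average (log2 fold change -0.64, adjusted p = 0.0935), Kcnt1 had 0.16, and the large-conductance channel gene Kcnma1 had 0.11.

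No inward rectifier gene passed edgeR's test: 0 of 8 were called, 0 had an unadjusted p under 0.05, and DESeq2 called 0. These channels hold neurons near the potassium equilibrium potential. Kcnj2, which encodes Kir2.1 of striatal projection neurons, was at 7.76, 6.49 and 11.6 CPM in control and 7.49, 5.92 and 6.66 CPM in Zfhx3-CKO (log2 fold change -0.36, adjusted p = 0.344). Kcnj10, the Kir4.1 gene of glia, ran from 46.4 to 54.9 CPM in control and from 43.6 to 66.2 CPM in Zfhx3-CKO. Kcnj8, the KATP pore of vascular mural cells, gave 0.34 (adjusted p = 0.372). The G protein-gated Kcnj3 (0.74), the KATP pore gene Kcnj11 (0.49) and Kcnj14 (0.67) likewise had overlapping groups. Kcnj4, another striatal Kir2 gene, had only 4 to 29 counts per library and was not tested.

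The two-pore-domain channels carry background leak current. Of 8 tested, edgeR called 0, with 1 higher and 3 lower at an unadjusted p under 0.05, and DESeq2 called 0. Those 3 were Kcnk2 and Kcnk10, mechanosensitive TREK channels, and Kcnk1 (TWIK-1). Kcnk10 ran from 78.5 to 85.5 CPM in control and from 66.7 to 76.1 CPM in Zfhx3-CKO (log2 fold change -0.19, adjusted p = 0.157). Kcnk2 had -0.25 (adjusted p = 0.129) and Kcnk1 had -0.49 (adjusted p = 0.163), each with all Zfhx3-CKO libraries below all controls. The acid-sensitive TASK-1 gene Kcnk3 lay the other way (0.82, adjusted p = 0.122) at a low level, 1.72 and 3.04 CPM on average.

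For the potassium channel auxiliary subunits the median log2 fold change was -0.20, the lowest of the 12 classes. edgeR called 0 of 12, with 0 higher and 2 lower at an unadjusted p under 0.05, and DESeq2 called 0. Kcnab2, a beta subunit of Kv1 channels, was at 25.5, 28.5 and 24.5 CPM in control and 20.1, 19.2 and 21.5 CPM in Zfhx3-CKO (log2 fold change -0.37, adjusted p = 0.0684). The groups did not overlap. Kcnab1 had -0.54 (adjusted p = 0.308), and Kcnmb2, a beta subunit of the large-conductance calcium-activated channel, had -0.72 (adjusted p = 0.104). The KChIP genes, whose products bind Kv4 channels, did not share a sign: Kcnip1 had 0.46, Kcnip2 0.38 and Kcnip3 -0.22. Kcne1l on the X chromosome ran from 27.0 to 38.9 CPM in control and from 24.7 to 37.0 CPM in Zfhx3-CKO.

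Sodium channel pore genes gave 0 edgeR calls among 7 tested, with 1 higher and 1 lower at an unadjusted p under 0.05 and 1 DESeq2 call. The brain channels had overlapping groups. Scn3a, the main fetal brain form, was at 136.2, 134.5 and 101.7 CPM in control and 112.9, 90.7 and 148.8 CPM in Zfhx3-CKO (log2 fold change -0.08). Scn2a had 0.18 and Scn8a 0.17. Scn9a and Scn10a, known from sensory neurons, had -0.63 (adjusted p = 0.241) and -1.0 (adjusted p = 0.195). Of the beta subunits, Scn3b ran from 83.6 to 104.6 CPM in control and from 79.7 to 146.5 CPM in Zfhx3-CKO, and Scn2b had a log2 fold change of -0.23. edgeR called 0 of the 3 tested, with 0 at an unadjusted p under 0.05 and 0 by DESeq2, and Scn4b had too few counts to test.

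Calcium channel pore genes lay in both directions. edgeR called 0 of 8, with 3 higher and 1 lower at an unadjusted p under 0.05, while DESeq2 called 1 higher, Cacna1a. Cacna1a, the P/Q-type pore of presynaptic terminals, was at 29.1, 32.6 and 24.3 CPM in control and 42.5, 34.5 and 55.1 CPM in Zfhx3-CKO (log2 fold change 0.62, adjusted p = 0.0686). The T-type gene Cacna1g was at 41.2, 37.1 and 29.1 CPM against 59.2, 44.6 and 98.5 CPM (log2 fold change 0.91, adjusted p = 0.0741). In both genes all Zfhx3-CKO libraries were above all controls. Cacna1e, the R-type pore, lay the other way at 168.1, 146.8 and 109.2 CPM in control against 77.0, 59.5 and 121.8 CPM (log2 fold change -0.72, adjusted p = 0.119). For this gene Zfhx3-CKO library 3 overlapped the controls. The N-type gene Cacna1b had -0.49 (adjusted p = 0.233). The L-type genes Cacna1c (0.07) and Cacna1d (0.46) and the T-type gene Cacna1h (0.17) overlapped between groups. Cacna1f, on the X chromosome, had at most 11 counts and none in 1 control library.

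Calcium channel accessory subunits included 1 gene that changed, Cacng4. It encodes TARP gamma-4, an auxiliary subunit of AMPA-type glutamate receptors that is named for its kinship with a calcium channel subunit. Cacng4 (ENSMUSG00000020723, chr11:107732357-107794557, minus strand) was at 232.1, 238.8 and 215.7 CPM in control libraries 1, 2 and 3 and at 158.1, 141.6 and 181.5 CPM in Zfhx3-CKO libraries 1, 2 and 3. The groups were well apart, and Zfhx3-CKO library 2 was the lowest. Cacng4 fell to 70.1% of control, from 228.9 ± 11.9 to 160.4 ± 20.1 CPM (SD, n = 3 each; log2 fold change -0.51, SE 0.10, edgeR adjusted p = 0.018). Leaving out control library 1 or 2 raised the adjusted p to 0.101 or 0.106, and leaving out Zfhx3-CKO library 1 raised it to 0.083. An overlapping transcript on the opposite strand, Gm11650, had 17 to 44 counts.

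Cacng4 lies between other members of its family on chromosome 11. Cacng1, the muscle calcium channel gamma subunit, ends 15835 bases before it and had 0 to 27 counts, with none in Zfhx3-CKO library 1, so it was outside the 116 genes. Its edgeR log2 fold change was -2.52 (adjusted p = 0.0557; DESeq2 adjusted p = 0.0226). Cacng5 begins 80048 bases after Cacng4 and was at 4.89, 5.29 and 4.42 CPM in control and 10.3, 4.55 and 8.75 CPM in Zfhx3-CKO (log2 fold change 0.69, adjusted p = 0.167). Elsewhere in the class, Cacng2, which encodes stargazin, had 0.06 with overlapping groups. Cacng7 varied within groups, at 36.0, 21.0 and 21.6 CPM in control and 13.1, 30.7 and 10.1 CPM in Zfhx3-CKO.

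The alpha2delta subunits bring calcium channels to the membrane. edgeR called 0 of 3, with 1 higher at an unadjusted p under 0.05, and DESeq2 called that gene, Cacna2d2. It was at 35.2, 35.2 and 27.4 CPM in control and 58.1, 43.1 and 95.9 CPM in Zfhx3-CKO (log2 fold change 1.01, SE 0.26, adjusted p = 0.0533), without overlap but with a wide spread in Zfhx3-CKO. Cacna2d1 had -0.08 and Cacna2d3 0.23. Of 4 cytoplasmic beta subunits edgeR called 0, with 1 lower at an unadjusted p under 0.05 (Cacnb4, -0.37, adjusted p = 0.18), and DESeq2 called 0. Cacnb3 had 0.07 and Cacnb1 0.03.

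The 4 HCN genes all had positive log2 fold changes and overlapping groups. edgeR called 0, with 1 higher at an unadjusted p under 0.05 (Hcn2), and DESeq2 called 0. Hcn2 was at 8.53, 7.75 and 7.29 CPM in control and 11.5, 7.88 and 20.6 CPM in Zfhx3-CKO (log2 fold change 0.76, adjusted p = 0.17). Hcn3 had 0.23 and Hcn4 0.22. For Hcn2, Zfhx3-CKO library 3 was far above library 2, which lay within the control range.

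That difference between Zfhx3-CKO libraries ran through the channel genes. Zfhx3-CKO library 3 was above library 2 in 88 of the 102 tested genes (86.3%), against 47.7% of all tested genes. Zfhx3-CKO library 3 had the highest of the 3 Zfhx3-CKO class medians in 11 of 12 classes, and library 2 had the lowest in 11 of 12. For the calcium channel pores the class medians, as log2 CPM over the control mean, were 0.18, -0.13 and 0.78 in libraries 1, 2 and 3, and for the HCN genes 0.19, -0.05 and 0.71. Voltage-gated potassium pores gave -0.18, -0.20 and 0.29. Sodium channel pores gave 0.00, -0.44 and 0.30. The 14 genes that went against it included Kcnn1, Kcnn2, Kcnj10, Kcnh7 and Cacng7. A difference was seen among controls as well: library 1 was above library 3 in 78 of the 102 channel genes (76.5%), against 48.5% of all tested genes.

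**Figure D3:**
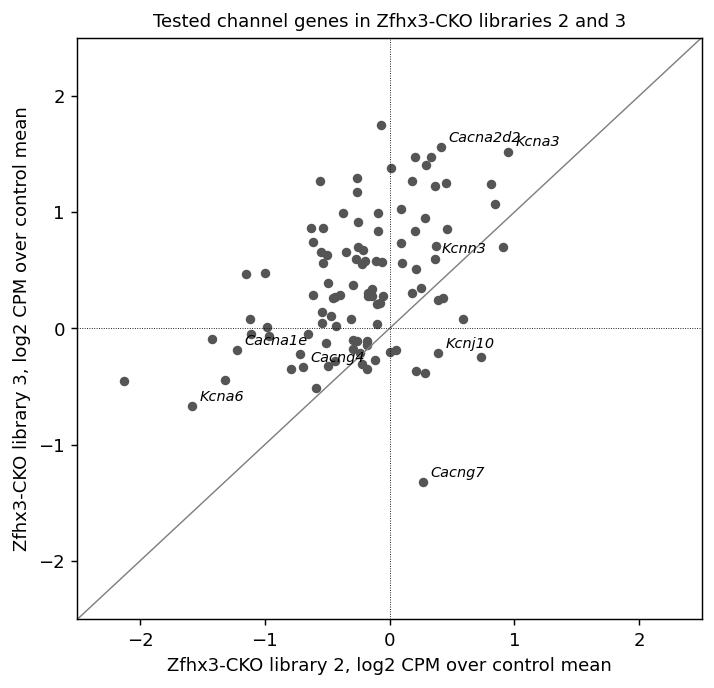
Each tested channel gene in Zfhx3-CKO library 2 (x axis) and library 3 (y axis), as log2 CPM over the mean of the 3 controls. Of the 102 points 88 lie above the diagonal, where library 3 exceeds library 2.

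Marker lists for other cells and for neuronal maturation differed between the same libraries. The 12 cortical excitatory neuron markers summed to 54.96 to 58.29 CPM in control and to 207.5, 53.79 and 294.3 CPM in Zfhx3-CKO libraries 1, 2 and 3; 1 of the 11 tested rose (Bhlhe22), and none was at 0 in all libraries. All 11 had an unadjusted p under 0.05, DESeq2 called 3, and their median log2 fold change was 1.40. The 6 synaptic maturation genes summed to 352.5 to 410.5 CPM in control and to 396.0, 299.1 and 534.6 CPM in Zfhx3-CKO libraries 1, 2 and 3. edgeR called 0 of these 6, with 1 at an unadjusted p under 0.05, and DESeq2 called 1. The 6 medial ganglionic eminence markers summed to 259.3 to 292.2 CPM in control and 326.0 to 474.2 CPM in Zfhx3-CKO, with 3 of 6 higher. Blood genes summed to 708.7 to 1078 CPM in control and to 704.1, 2549 and 810.6 CPM in Zfhx3-CKO libraries 1, 2 and 3. The 10 progenitor markers summed to 2631 to 2914 CPM in control and to 3544, 3756 and 2853 CPM in Zfhx3-CKO, with 3 of 10 higher. Their part in the channel results was not tested. With Zfhx3-CKO libraries 1 and 3 left out, the median log2 fold change of the channel genes was -0.22 in place of 0.08. A test there assumes that the lone library 2 varies as the controls do, so only effect sizes are given. In that comparison the log2 fold change was 0.94 for Kcna3, -0.69 for Cacng4 and 0.36 for Kcnn3.

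**Figure D4:**
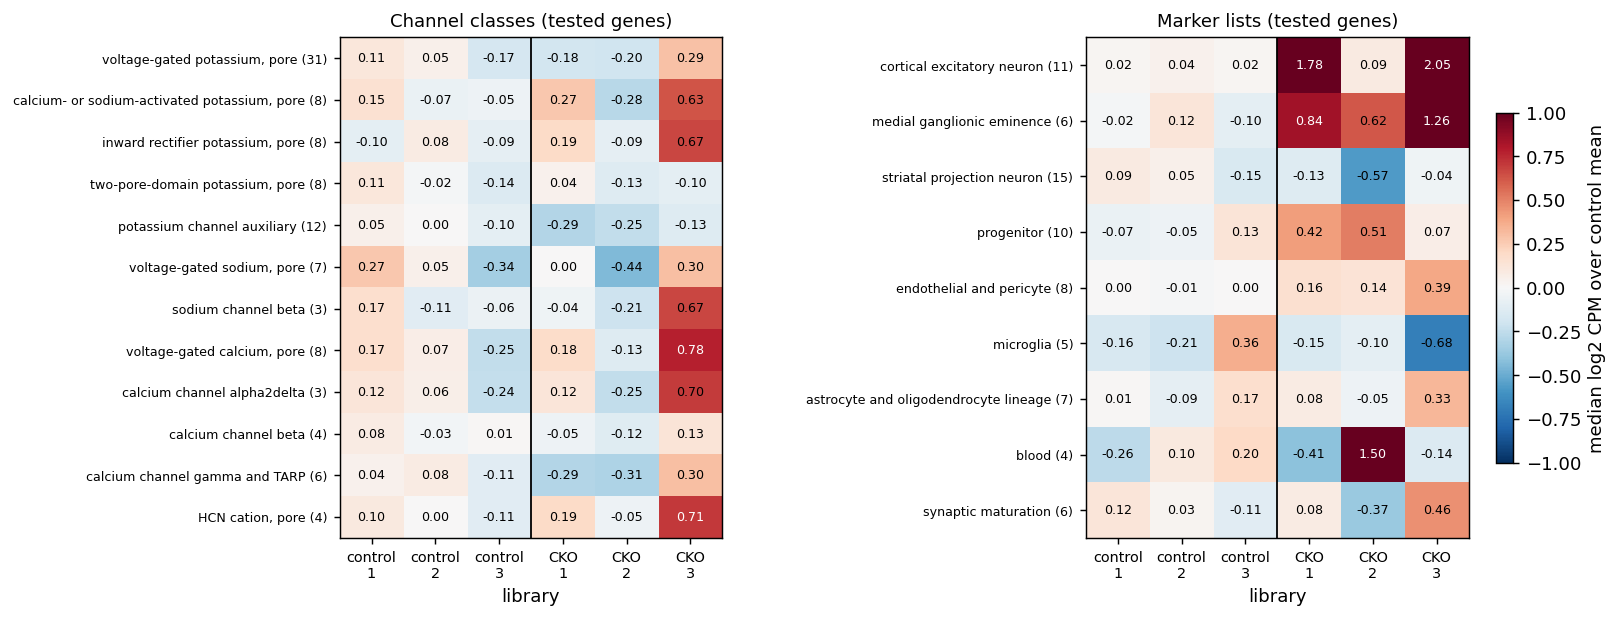
Median log2 CPM over the control mean for each of the 6 libraries (columns), for the channel classes in one panel and the marker lists in the other; colour stops at -1 and 1. Zfhx3-CKO library 3 has the highest of the 3 Zfhx3-CKO values in 11 of 12 channel classes, and the cortical excitatory list reads 1.78, 0.09 and 2.05 in Zfhx3-CKO libraries 1, 2 and 3.

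Per transcript length, levels spanned a wide range. In FPKM, the deposited fragment counts scaled by transcript length and library size, 10 of the 116 genes averaged at least 10 over the 6 libraries, 72 at least 1, and 44 less than 1. The highest was Cacnb3, a cytoplasmic calcium channel beta subunit, at 72.1 ± 1.78 FPKM in control and 75.7 ± 7.66 in Zfhx3-CKO (SD, n = 3 each). Cacng4 came next at 64.1 ± 2.94 and 44.8 ± 5.45 FPKM, second in both groups. Kcne1l followed at 20.9 and 21.2 FPKM and Scn3b at 17.0 and 19.3 FPKM. Cacna1h (15.7 ± 2.64 in control), Kcnh4 (14.99 ± 0.848) and Cacnb1 (14.6 ± 0.919) did not differ from one another beyond their spread. Among sodium channel pores in control Scn3a was highest (9.98 FPKM), then Scn8a (6.02) and Scn2a (2.12). Hcn3 led the HCN genes (11.8 FPKM in control), with Hcn4 at 5.81 and Hcn2 at 2.46. The other class leaders were Kcnk2 (9.96 FPKM in control), Kcnj10 (9.36), Cacna2d3 (9.20) and Kcnn1 (6.25).

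**Figure D5:**
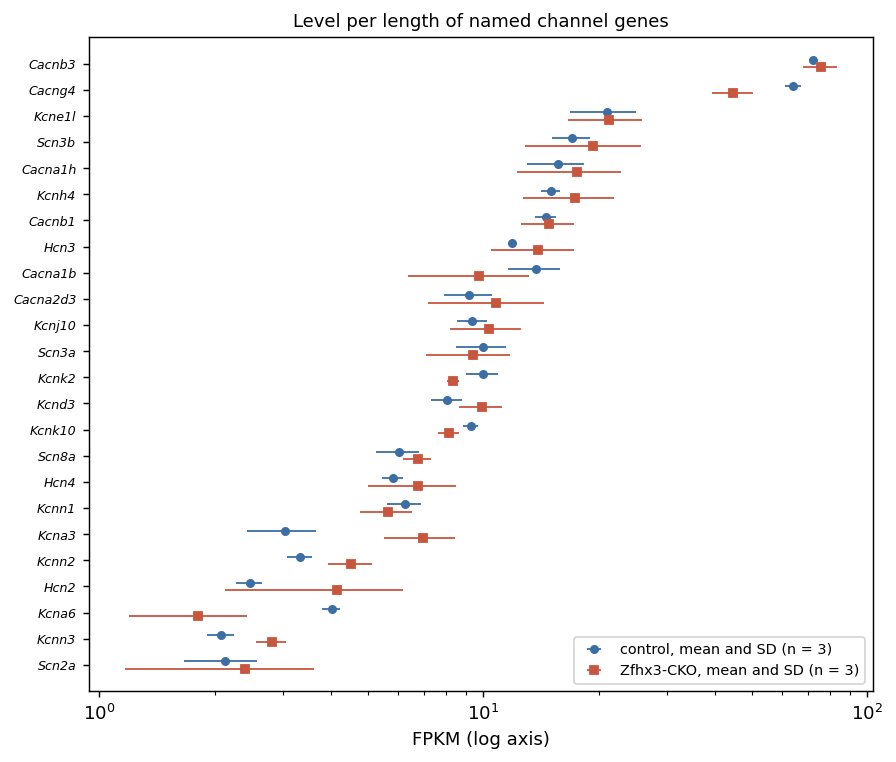
Mean FPKM (log axis) in control and Zfhx3-CKO of 24 channel genes that the text names, in order of level, bars showing SD over 3 libraries. Cacnb3 is highest in both groups and Cacng4 second, with Cacng4 at 64.1 in control and 44.8 in Zfhx3-CKO.

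Genes that work with these channels, such as calcium stores, chloride channels, G protein subunits and trafficking partners, were read from a separate list. Of 73 listed genes 69 were tested: 3 rose, 1 fell and 65 did not pass, with a median log2 fold change of 0.04. Over all 16551 tested genes 3.87% were called higher and 3.48% lower, so the list as a whole is not read as changed more often. Stac2, an adaptor that binds L-type calcium channels, was at 18.1, 18.7 and 16.3 CPM in control and 59.8, 48.1 and 65.5 CPM in Zfhx3-CKO. Every Zfhx3-CKO library was far above every control, with means of 17.7 ± 1.25 and 57.8 ± 8.84 CPM (SD, n = 3 each; log2 fold change 1.71, SE 0.13, edgeR adjusted p = 0.000319). Pex5l, known as TRIP8b, is an HCN channel auxiliary subunit that stood at 1.58 CPM in control and rose 2.34-fold (log2 fold change 1.23, adjusted p = 0.0179), while the HCN genes themselves did not pass. Itpr1, the calcium release channel of the endoplasmic reticulum, rose from 15.8 to 21.2 CPM (0.42, adjusted p = 0.0447). Clcn3, an endosomal chloride/proton exchanger, fell from 142.6 to 116.0 CPM (-0.30, adjusted p = 0.0439). Leaving out 1 library at a time, Stac2 kept its call throughout (adjusted p at most 0.00581). Pex5l lost it without Zfhx3-CKO library 1 or any 1 control (up to 0.076). Itpr1 kept it only without Zfhx3-CKO library 2 (otherwise 0.0515 to 0.155), and Clcn3 only without Zfhx3-CKO library 3 (otherwise 0.0652 to 0.186). With limma-trend on FPKM the adjusted p was 0.25 for Itpr1 and 0.0716 for Clcn3. Closest outside the threshold were Clcn6 (-0.34, adjusted p = 0.0633), Gng3 (-0.37, adjusted p = 0.0805) and Ryr3 (1.10, adjusted p = 0.0811).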

How the data were processed

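Bulk RNA-seq of mouse LGE (3 control and 3 Zfhx3-CKO libraries) was read from the deposited tables. The starting material was 1 ug of total RNA, and the TruSeq kit named in the labels' protocols leaves strand unmarked, so antisense reads are not separated. Tools listed in the submitters' processing notes are HISAT2, StringTie, edgeR and bcl2fastq 2.17.1.14, with mm10 and GRCm38.p4 as builds and no roles stated. The deposited counts are whole reads or fragments per gene, not normalised, per the file headers. The deposited FPKM were made by the authors by scaling for gene length and depth. The authors' deposited table also holds log2 fold changes and p-values, raw and adjusted, from a test its headers do not name.

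Control columns of the full table were tied to samples by group word and number. Zfhx3-CKO columns, whose heading holds no group word, were tied as the only other prefix, with the number. The values of all 12 count and FPKM columns were identical for the 3726 genes of a shorter table whose columns carry the sample titles. Library totals were 15938590 to 20311799 counts. Chi-square per gene between libraries of 1 group was 3.15 to 26.7, more than counting noise alone gives, so no 2 were taken as 1 library deposited in duplicate. This does not show separate animals.

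Genotypes were compared with edgeR's quasi-likelihood test (edgeR 4.0.16, limma 3.58.1, R 4.3.3) on all genes with TMM factors (0.9921 to 1.008) and the filterByExpr filter at a minimum count of 10, which kept 16551 of 29659 genes and left out 13108. Genotype was the only term, and p was adjusted by Benjamini-Hochberg at 0.05. The fit was tested on simulated data, where the share of false calls was above 0.05. Among the genes called here that share may also exceed 0.05, and an adjusted p just under 0.05 is less firm than its value says. SE came from the quasi-likelihood F. Alternatives were DESeq2 1.42.0, other size factors, no filter, a stricter filter (5 CPM in 3 libraries), limma-trend on log2(FPKM + 1), a replicate block, and leaving out libraries. Values over the control mean used log CPM with a prior count of 2.

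Members, classes and lists were chosen with earlier results of these data known. Named genes were every member called, the 3 of smallest p and the 3 of highest FPKM in each class, and a list of channels of striatum, glia, vessels and the X chromosome; others were named after their values were seen. Results of some genes that this rule covers are not reported here.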

Additional observations from a re-analysis of the deposited data

How the results depend on the processing

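The 4 calls did not change with RLE factors or library totals in place of TMM, and no single gene or count turned its called direction in any alternative run. DESeq2 called 7 of 116 channel genes (6.03%) higher, among them Kcna3, Kcnn3, Kcng1, Kcnn2, Cacna1a and Cacna2d2, against 1021 (3.44%) of all genes. It called 2 channel genes (1.72%) lower against 2.55% of all genes, and 5 partner genes higher and 3 lower. Without a low-count filter edgeR called 9 of 116 channel genes (7.76%) higher against 1075 (3.62%) of all genes. It called 3 (2.59%) lower against 2.65%, and 6 partner genes higher and 5 lower. In both runs all genes include those with few counts, while the 116 had counts in every library, so these shares are not like for like. With limma-trend on FPKM 1 of 75 channel genes (1.33%) was higher against 3.33% of all genes, and 2 (2.67%) were lower against 3.40%. In that run 1 partner gene was higher and 0 lower. With the replicate block 0 channel genes were higher and 1 lower (Kcna6, adjusted p = 0.0494), 176 of all genes were higher and 136 lower, and 1 partner gene was higher and 0 lower. The numbers did not pair the libraries: deviations of same-numbered libraries correlated at -0.035, -0.081 and -0.251. Without Zfhx3-CKO libraries 1 and 3, 1 channel gene was higher and 11 lower, 10 partner genes were lower, and the channel median was -0.22; 33 of the 102 channel genes changed sign without a call. Leaving out 1 library at a time gave 0 to 13 channel genes higher and 0 to 11 lower, 156 to 1082 of all genes higher and 131 to 1014 lower, 1 to 7 partner genes higher and 0 to 9 lower, and a channel median of -0.07 to 0.17. The ends of these ranges come from different runs. The 13 higher (12.1% of 107, against 5.11% of all genes) came without Zfhx3-CKO library 2. The 11 lower (10.7% of 103, against 6.06%) came without Zfhx3-CKO library 3. That run also gave the 1082 of all genes higher (6.47%), with 3 channel genes higher (2.91%). The leading gene by level was the same by CPM in 8 of 12 classes. Channel genes with few counts limit what these totals can show, and 14 with counts in every library were not tested. Where calls moved, the cause was not tested.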
